A study of Mus musculus with 24 samples.

Results

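The livers of 3 mice in which Cre recombinase had deleted E2f7 and E2f8 in hepatocytes (HKO) were compared with those of 3 mice that had received the matching virus without Cre (control). These 6 of the 24 libraries of the series were chosen by their labels, as all libraries analysed here from mice of the hepatocyte cohort without acetaminophen. Both groups were male, 2.5 months old, fasted for about 16 h and carried floxed alleles of E2f7 and E2f8 and the R26R mTmG reporter on a mixed, mainly FVB background. At 2 months of age the HKO mice were given AAV8-TBG-Cre and the controls AAV8-TBG-Null, so that the deletion was about 2 weeks old. TBG is a promoter active in hepatocytes, and the other cells of the liver keep both genes. Whole liver was sequenced, 1 library per mouse, and in such bulk samples fewer cells of a type and less RNA per cell cannot be told apart.

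E2F7 and E2F8 are the atypical members of the E2F family. They bind E2F sites without a DP partner and repress genes of DNA replication and the cell cycle, and in the liver they are known for their part in the polyploidization of hepatocytes. The hepatocyte is also the main source of plasma proteins, disposes of ammonia, drugs and bile acids, and sets its sex-specific gene expression by the pulses of pituitary growth hormone. The comparison asks which of these metabolic, signalling and secreted-protein genes differed in the adult liver at rest, 2 weeks after the deletion.

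Reads counted on genes ranged from 15175140 to 17341714 in the control libraries and from 15006825 to 16611709 in the HKO libraries. Levels are given as CPM (read counts relative to library size), scaled by edgeR's TMM factors, and 3 counts, taken as the lowest detectable level, came to 0.177 to 0.202 CPM, for counting error only. The share of unmapped reads was 8.95% to 12.5% in controls and 5.72% to 7.25% in HKO, and TMM factors were 0.957 to 0.987 and 1.02 to 1.03, with no overlap in either. The 10 hepatocyte markers were present at a summed 89609 to 92893 CPM in controls and 72277 to 102455 CPM in HKO. Of 11 lists of cell type markers, hepatocytes included, 9 had summed levels that overlapped between groups. The 12 lymphocyte markers summed to 7.74 to 9.82 CPM in controls and 12.4 to 16.8 CPM in HKO, and the 8 lung epithelial markers to 7.84 to 11.6 and 5.63 to 7.59 CPM. The part of these differences in the results below was not tested.

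The targeted genes were examined first. E2f8 (mouse chromosome 7, 48866429 to 48881596, GRCm38) had 17.8, 25.7 and 14.5 CPM in controls and 51.8, 82.0 and 30.1 CPM in HKO, higher in every HKO liver than in any control. Its log2 fold change was 1.5 ± 0.33 (SE), and its adjusted p of 0.0773 missed the threshold of 0.05. It was called higher under 4 of 14 other settings, DESeq2 among them (adjusted p = 0.0392), with adjusted p-values from 0.00181 to 0.289. E2f7 (chromosome 10, 110745439 to 110787384) stood near the detection limit, with 0.844, 1.21 and 0.186 CPM in controls and 1.30, 0.125 and 0.194 CPM in HKO. The counts cover each whole gene, exons outside the deleted part included, so neither level checks the deletion. The study assessed it by the mTmG reporter and by reads in chosen exons of E2f8, which were not analysed here.

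Of 12397 genes tested, 52 were higher in HKO (0.419%) and 67 lower (0.540%), 119 in all (0.960%). Calls rest on edgeR's quasi-likelihood test, with limits of 0.05 on the adjusted p and 1.5-fold on the change, and DESeq2 with the same limits made 331 (2.84%). The 119 included 9 genes of the circadian clock, 41 members of the 49 lists examined, the clock list included, and 78 genes on no list. Every called gene had groups that did not overlap, as did 18.0% of all genes tested (8.83% higher and 9.15% lower), and the median log2 fold change over all genes tested was 0.01. With libraries scaled by size alone, 76 of 134 calls were higher, so that the balance of higher and lower calls depended on the scaling. Under 14 other settings of the analysis, 17 of the 119 were called each time. The calls of Pdxk, Gstt2, Stk35, Acot4, Abtb2, Cyp4v3, Kcnk5, C9, C4a, Gm15401, Trim24, Fmo5 and Irf1, all named below, held under 5 to 9 of the 14. Klhdc7b held under 5 and Sftpc under 6 of the 11 settings that gave them a value, and Zbtb7c under 7 of 13.

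**Figure D1:**
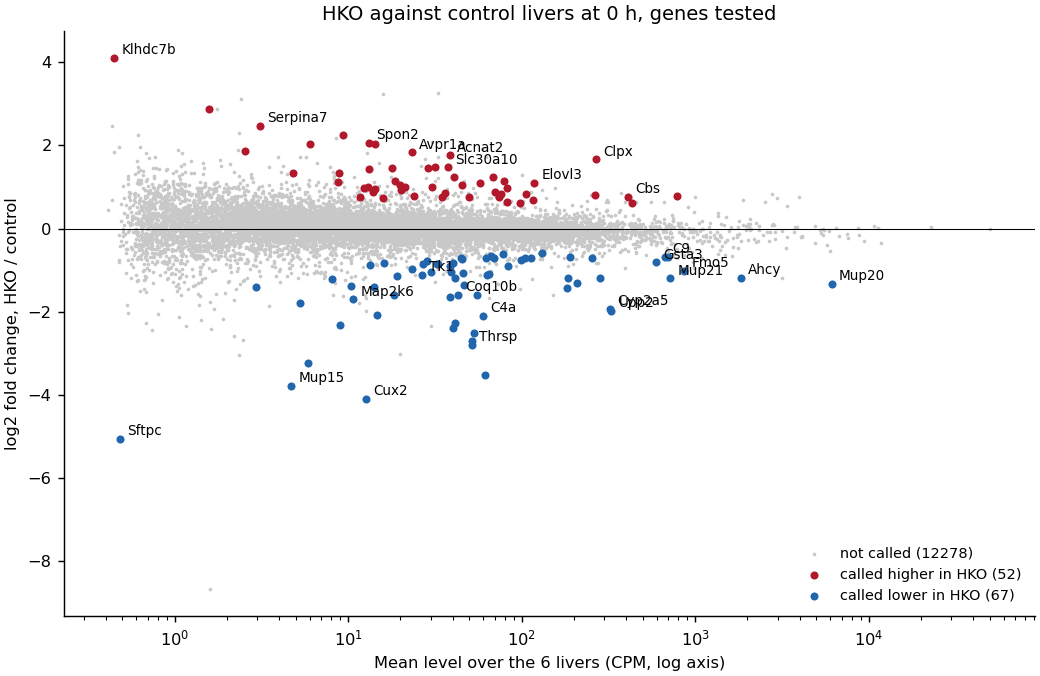
Each point is 1 of the 12397 genes tested, with its mean level over the 6 livers (CPM, log axis) and its log2 fold change between HKO and control livers. The 52 genes called higher (red) and 67 called lower (blue) ran from Klhdc7b to Sftpc, both with few reads, and 109 of the called genes had a mean over 10 CPM in at least 1 group.

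The 2 largest fold changes belonged to genes with very few reads. Klhdc7b, a gene of the kelch family, had 1, 0 and 1 counts in controls and 11, 14 and 16 in HKO (adjusted p = 0.0348). Sftpc, the surfactant protein C gene of lung epithelium, had 13, 14 and 18 counts in controls and 0, 0 and 1 in HKO (adjusted p = 0.0238), and Sftpb, another surfactant gene, had no read in any library. Their fold changes are not given because 1 group of each lay under the detection limit.

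Among secreted proteins, 3 of the 10 tested genes of the major urinary proteins (MUPs) fell, beside 0.540% of all genes tested. MUPs are pheromone carriers that the male liver releases into blood and urine. All 10 tested Mup genes were lower in HKO with no overlap between groups, beside 9.15% of all genes tested that were lower without overlap. Their median log2 fold change was -1.25. Mup20, which encodes the male pheromone darcin, had 8504, 8154 and 9591 CPM in controls and 3383, 4332 and 2701 CPM in HKO (log2 fold change -1.33 ± 0.18, adjusted p = 0.00927). Mup21 had 1056, 780 and 1167 CPM in controls and 343, 530 and 439 CPM in HKO (-1.19 ± 0.19, adjusted p = 0.0219). Mup15 had 7.78, 13.0 and 5.39 CPM in controls and 0.236, 0.688 and 0.972 CPM in HKO (-3.79 ± 0.48, adjusted p = 0.00728). The other 7 did not pass the test. Mup7 had 1364, 1477 and 1043 CPM in controls and 480, 756 and 765 CPM in HKO (adjusted p = 0.0591). Mup3, the Mup gene with most reads, had 12430, 12605 and 14319 CPM in controls and 8156, 11056 and 11745 CPM in HKO (adjusted p = 0.415). HKO mouse 1 was the lowest of the 6 livers in 9 of the 10 genes. Mup genes share long stretches of near-identical sequence on chromosome 4, and only uniquely mapped reads were counted, so the level of a single member is uncertain.

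**Figure D2:**
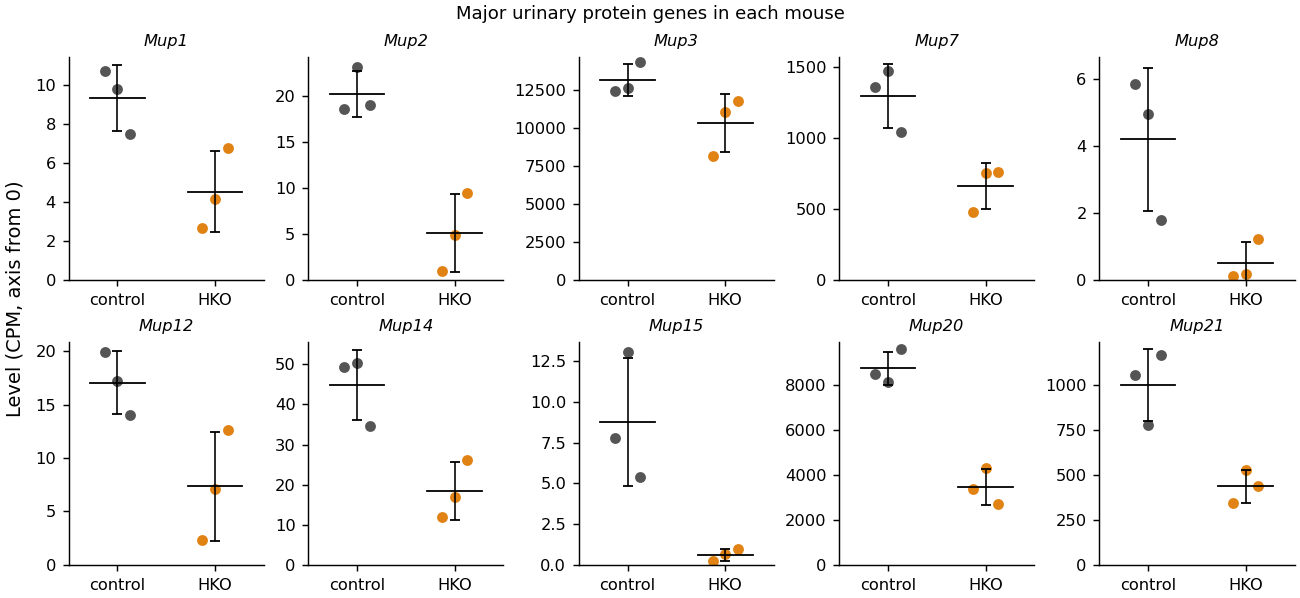
Level of each of the 10 tested major urinary protein genes in each liver (CPM, linear axes from 0, 1 scale per gene), with control livers in grey, HKO livers in orange, and bars for mean and SD (n = 3). The 3 HKO livers lay under the 3 control livers in all 10 panels, and Mup15, Mup20 and Mup21 passed the test.

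Few genes of the other lists of secreted proteins passed the test. Of 34 tested carrier and apolipoprotein genes 1 was called, of 31 serpins 1, of 35 complement genes 2, and of 38 coagulation, 31 acute-phase and 59 hepatokine, growth factor and chemokine genes none, beside 0.960% of all genes tested. The summed level of the 40 coagulation genes was nevertheless higher in HKO without overlap, 34928 to 41381 CPM against 30862 to 31967 CPM in controls, and so was that of the acute-phase genes, 37628 to 50264 against 35305 to 36233 CPM. Both lists hold Fga, Fgb, Fgg, Itih3 and Itih4, so their sums are not independent. Sums of other lists did not overlap either, among them cholesterol, glucose, P450, conjugation, periportal and heat shock genes (lower in HKO) and TGF-beta genes (higher). Of the 38 coagulation genes tested 21 had positive and 17 negative fold changes, with a median of 0.045 that became -0.0011 without HKO mouse 3. Serpina7, which encodes thyroxine-binding globulin (X chromosome, 139079257 to 139085236), accounts for both the carrier and the serpin call. It had 1.02, 0.874 and 0.929 CPM in controls and 4.49, 7.44 and 3.89 CPM in HKO (log2 fold change 2.47 ± 0.33, adjusted p = 0.00967). The lowest HKO liver stood well above the highest control. Albumin (Alb) had 48933, 50107 and 52955 CPM in controls and 36296, 47476 and 66218 CPM in HKO, with the control range inside that of HKO.

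Both called complement genes were lower in HKO. C9, the pore-forming component of the membrane attack complex, had 780, 879 and 826 CPM in controls and 540, 546 and 464 CPM in HKO (log2 fold change -0.68 ± 0.11, adjusted p = 0.0210). C4a, the sex-limited protein gene next to C4b on chromosome 17, had 116, 105 and 71.0 CPM in controls and 33.3, 8.63 and 26 CPM in HKO (-2.10 ± 0.40, adjusted p = 0.0476). C4b, its close copy, had 1580, 1787 and 1650 CPM in controls and 2223, 1602 and 1858 CPM in HKO, with overlap, and reads of the pair may be misassigned. C2, a convertase subunit singled out after its values were seen, had an adjusted p of 0.0385 at a log2 fold change of -0.55, which is under the 1.5-fold limit. The central component C3 had 7895, 8858 and 9330 CPM in controls and 8922, 9000 and 8259 CPM in HKO.

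Spon2, which encodes the secreted matrix protein spondin 2 (chromosome 5, 33198184 to 33218455), had 5.97, 4.24 and 4.95 CPM in controls and 19.4, 24.2 and 19.9 CPM in HKO. Its log2 fold change of 2.06 ± 0.18 (adjusted p = 0.000956) was among the steadiest of the data, since it stayed called under all 14 other settings tried. Members of the acute-phase list were unequal within the HKO group. Of its 31 tested genes 25 had positive fold changes, with a median of 0.16 that became -0.01 without HKO mouse 1. HKO mouse 1 was the highest of the 6 livers in 22 of them, or 71.0%, against 19.5% of all genes tested. Fgb, a fibrinogen chain, had 2880, 2522 and 2863 CPM in controls and 5239, 3627 and 3242 CPM in HKO (adjusted p = 0.222). Haptoglobin (Hp) had 2321, 2034 and 1586 CPM in controls and 4227, 2687 and 2353 CPM in HKO (adjusted p = 0.261). The neutrophil chemokine Cxcl1, named after its values were seen, had 81.8 CPM in HKO mouse 1 and 2.02 to 3.78 CPM in the other 5 livers. The 9 neutrophil and myeloid progenitor markers summed to 9.87 CPM in that liver and to 0.619 to 4.25 CPM in the others, with Mpo, Ngp and Camp at 0 or 1 count in every library, and their part in the acute-phase values was not tested. Without HKO mouse 1 the median log2 fold change of the acute-phase list went from 0.16 to -0.01.

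In the methionine cycle, which supplies methyl groups and leads homocysteine to cysteine, enzymes were called in both directions. Ahcy, which splits S-adenosylhomocysteine (chromosome 2, 155059310 to 155074497), had 2793, 2406 and 2467 CPM in controls and 1204, 1152 and 1004 CPM in HKO. It fell by 1.19 ± 0.12 on the log2 scale (adjusted p = 0.00191), with all HKO livers far under the lowest control. Cbs, which joins homocysteine to serine, had 345, 299.7 and 268 CPM in controls and 546, 472 and 538 CPM in HKO (log2 fold change 0.77 ± 0.12, adjusted p = 0.0202). The 3 HKO livers lay above all controls. Mat1a, Gnmt, Bhmt and Cth, the neighbouring enzymes, had adjusted p-values of 0.877, 0.436, 0.953 and 0.937.

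The wider list of urea cycle and amino acid catabolism leaned to lower values without further calls. Of 41 tested members, 36 had a negative and 5 a positive log2 fold change, 14 were lower without overlap (9.15% of all genes tested were), and the median was -0.28. Cps1, the entry enzyme of the urea cycle, had 6826, 6935 and 5803 CPM in controls and 5345, 4670 and 4951 CPM in HKO (adjusted p = 0.224). Tat, the tyrosine aminotransferase, had 5400, 4620 and 3206 CPM in controls and 2597, 1543 and 1610 CPM in HKO, and at a log2 fold change of -1.20 ± 0.24 it just missed the threshold (adjusted p = 0.0564). Control mouse 1 was the highest of the 6 livers in 31 of the 41 members. Ass1 had 0 to 4 counts in every library and was not tested. Sds and Prodh had adjusted p-values of 0.287 and 0.358, with overlapping groups.

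Nucleotide salvage held 1 of the clearest decreases. Upp2, the liver uridine phosphorylase that cleaves uridine to uracil (chromosome 2, 58567298 to 58792971), had 637, 498 and 433 CPM in controls and 153, 106 and 139 CPM in HKO. It fell by 1.98 ± 0.18 on the log2 scale (adjusted p = 0.00114), and it was called under all 14 other settings. Tk1, the thymidine kinase of the S phase, had 33.7, 32.6 and 42.7 CPM in controls and 14.4, 17.0 and 18.9 CPM in HKO (-1.12 ± 0.15, adjusted p = 0.00927). It was the single call among 39 tested genes of the E2F family and DNA replication, beside 0.960% of all genes tested. Of the 39, 17 had positive and 22 negative fold changes. The median of that list was -0.08. E2f1 had 1.33, 1.55 and 1.05 CPM in controls and 1.06, 0.813 and 0.972 CPM in HKO, and Mcm6, a helicase subunit, 2.77, 2.83 and 2.97 against 3.84, 3.63 and 3.63 CPM. Neither passed the test, and none of the 10 tested mitosis genes did (21 of the 31 on that list had too few reads).

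Lipid genes showed a few large, separate differences. Thrsp, the thyroid hormone-responsive Spot 14 gene of fatty acid synthesis (chromosome 7, 97412938 to 97417730), had 71.6, 91.3 and 109 CPM in controls and 15.7, 12.1 and 11.3 CPM in HKO. It fell by 2.80 ± 0.18 on the log2 scale (adjusted p = 0.000374). Elovl3, an elongase of very long chain fatty acids, went the other way, with 88.1, 54.6 and 82.8 CPM in controls and 171, 138 and 173 CPM in HKO (log2 fold change 1.09 ± 0.18, adjusted p = 0.0238). The other 18 tested genes of fatty acid synthesis were not called, beside 0.960% of all genes tested that were. Of the 20 tested, Elovl3 and Thrsp included, 6 were higher and 5 lower without overlap between groups. Of all genes tested, 8.83% were higher and 9.15% lower without overlap. Fasn, the fatty acid synthase, had 129, 148 and 170 CPM in controls and 145, 137 and 133 CPM in HKO, and Scd1, the stearoyl-CoA desaturase, 992, 703 and 2010 against 1008, 909 and 1104 CPM. Both overlapped between groups, as did the regulator Srebf1 (adjusted p = 0.993).

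Enzymes that release or transfer acyl chains in peroxisomes were called in both directions. Acnat2, an acyltransferase for amino acids, had 15.7, 14.3 and 22.6 CPM in controls and 80.6, 63.7 and 34.7 CPM in HKO (log2 fold change 1.77 ± 0.29, adjusted p = 0.0261). The thioesterase Acot3 had 56.3, 89.5 and 103 CPM in controls and 19.5, 32.0 and 30.6 CPM in HKO (-1.60 ± 0.24, adjusted p = 0.0182), and its neighbour Acot4 72.5, 89.4 and 96.3 against 46.3, 55.0 and 57.2 CPM (-0.70 ± 0.13, adjusted p = 0.0454). Crot, the peroxisomal carnitine octanoyltransferase, which was singled out after its values were seen, had 580, 598 and 556 CPM in controls and 961, 950 and 1082 CPM in HKO (0.79 ± 0.10, adjusted p = 0.00728). The Acot calls were the only ones among 30 genes of PPAR-alpha, fatty acid oxidation and ketogenesis, beside 0.960% of all genes tested. The median of these 30 was -0.01. Ppara and Cpt1a had overlapping groups. Cyp4a14 was at 2662, 1789 and 1513 CPM in controls and 4699, 4056 and 1818 CPM in HKO (adjusted p = 0.335).

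No member of the cholesterol, bile acid, bile transporter, triglyceride storage or glucose lists was called. Among 24 genes of cholesterol synthesis and uptake, 20 had negative fold changes, 8 were lower without overlap (9.15% of all genes tested were) and the median was -0.30. HKO mouse 2 was the lowest liver in 17 of them, or 70.8%, against 15.8% of all genes tested, and without that mouse the median was -0.16. Control mouse 3 was the highest in 10. Sqle overlapped between groups. Cyp7a1, the rate-limiting enzyme of bile acid synthesis, was at 281, 259 and 285 CPM in controls but spread from 50.1 over 265 to 550 CPM in HKO, so its means could not be told apart at this spread (adjusted p = 0.978). Pck1, which starts gluconeogenesis, had 6896, 7668 and 6766 CPM in controls and 5270, 4365 and 4989 CPM in HKO (-0.54 ± 0.13, adjusted p = 0.0876), and Gys2, the liver glycogen synthase, 334, 355 and 264 against 227, 180 and 194 CPM (adjusted p = 0.0591).

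**Figure D3:**
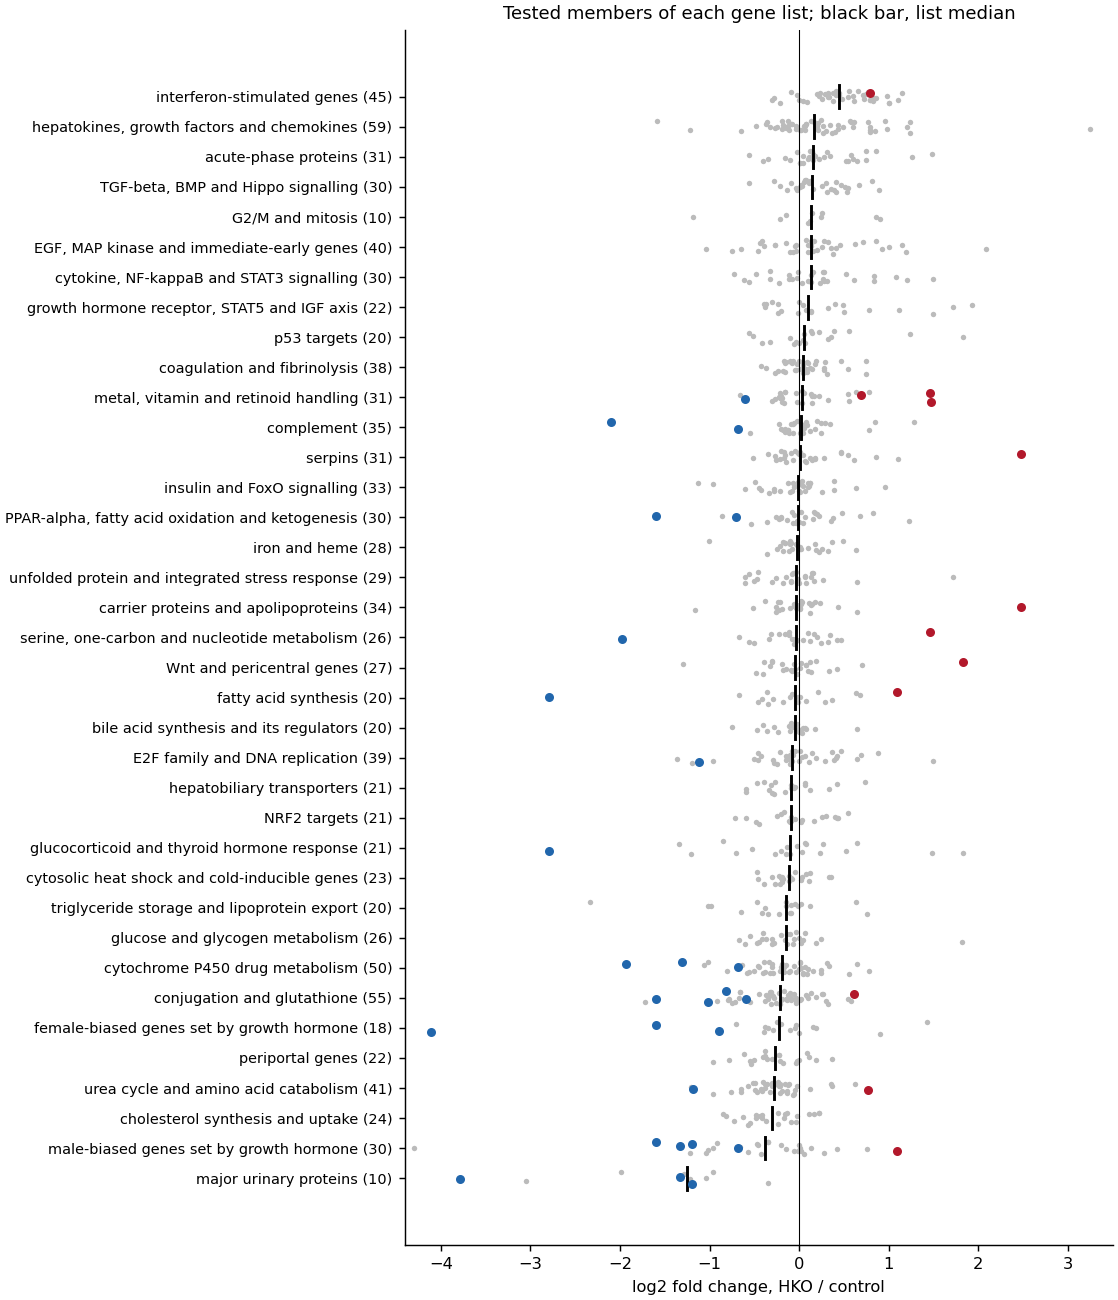
Log2 fold change of each tested member of 37 gene lists (number tested in parentheses), with called members in red (higher) or blue (lower), others in grey and a black bar at the list median. The major urinary proteins had the lowest median (-1.25) and the interferon-stimulated genes the highest (0.45), and 1 value below the axis is drawn at its left edge.

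Drug metabolism genes that were called were nearly all lower. Of 50 tested cytochrome P450 genes and their regulators, 3 fell and none rose, beside 0.540% and 0.419% of all genes tested. Cyp2a5, which oxidizes coumarin and nicotine (chromosome 7, 26835305 to 26843548), had 483, 423 and 632 CPM in controls and 137, 129 and 137 CPM in HKO (log2 fold change -1.93 ± 0.15, adjusted p = 0.000676). Cyp3a13 had 316, 274 and 304 CPM in controls and 104, 143 and 115 CPM in HKO (-1.30 ± 0.13, adjusted p = 0.00205). Cyp4v3, a fatty acid hydroxylase, had 874, 808 and 906 CPM in controls and 486, 501 and 630 CPM in HKO (-0.68 ± 0.12, adjusted p = 0.0385). The P450 list had 33 negative and 17 positive fold changes. Those that activate acetaminophen overlapped between groups, with Cyp2e1 at 9940, 9513 and 8167 CPM in controls and 6868, 10372 and 7641 CPM in HKO (adjusted p = 0.798), and Cyp1a2 at 436, 331 and 356 against 376, 404 and 426 CPM (adjusted p = 0.805). Cyp3a11 (adjusted p = 0.622) and Cyp2b10 (adjusted p = 0.439) overlapped too.

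Among 55 conjugation and glutathione genes, 41 had negative fold changes, 4 fell and 1 rose, beside 0.540% and 0.419% of all genes tested. The glutathione transferases Gsta3 and Gstt2 fell, Gsta3 from 748, 710 and 813 CPM in controls to 389, 493 and 412 CPM in HKO (log2 fold change -0.81 ± 0.12, adjusted p = 0.0151), and Gstt2 from 164, 154 and 157 to 110, 113 and 93.0 CPM (-0.59 ± 0.10, adjusted p = 0.0318). The Gstt2 call held under 6 of 14 other settings, and when a mouse was left out only without HKO mouse 1. The glucuronosyltransferase Ugt2b38 fell from 24.2, 25.6 and 33.7 to 10.9, 9.57 and 7.07 CPM (-1.60 ± 0.19, adjusted p = 0.00541), with the reserve that it has near-identical copies. The flavin monooxygenase Fmo5 fell from 1253, 1324 and 900 to 663, 485 and 569 CPM (-1.02 ± 0.17, adjusted p = 0.0264). None of 21 NRF2 targets was called. Gclc, the rate-limiting enzyme of glutathione synthesis, had 178, 249 and 267 CPM in controls and 263, 295 and 296 CPM in HKO (adjusted p = 0.442). Gstm1 had an adjusted p of 0.992, and Gstp1 had 1899, 1676 and 2397 against 1492, 1235 and 1050 CPM (adjusted p = 0.122).

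Of 31 genes of metal, vitamin and retinoid handling 3 rose and 1 fell, beside 0.419% and 0.540% of all genes tested. Slc30a10, the manganese exporter of hepatocytes (chromosome 1, 185454848 to 185468762), had 16.0, 20.4 and 23.5 CPM in controls and 64.5, 57.6 and 43.8 CPM in HKO (log2 fold change 1.47 ± 0.18, adjusted p = 0.00586). Stra6l, which encodes the liver receptor for retinol-binding protein, had 95.6, 85.4 and 86.4 CPM in controls and 151, 128 and 151 CPM in HKO (0.69 ± 0.10, adjusted p = 0.0178). Pdxk, the kinase that activates vitamin B6, had 81.1, 105 and 95.5 CPM in controls and 59.8, 58.6 and 66.1 CPM in HKO (-0.61 ± 0.12, adjusted p = 0.0476). The Pdxk call held under 5 of 14 other settings and was lost whichever mouse was left out. The metallothioneins Mt1 and Mt2 were not called (adjusted p = 0.869 and 0.993), and none of 28 iron and heme genes was. Hamp, the iron hormone hepcidin, had 480, 292 and 612 CPM in controls and 640, 397 and 449 CPM in HKO.

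**Figure D4:**
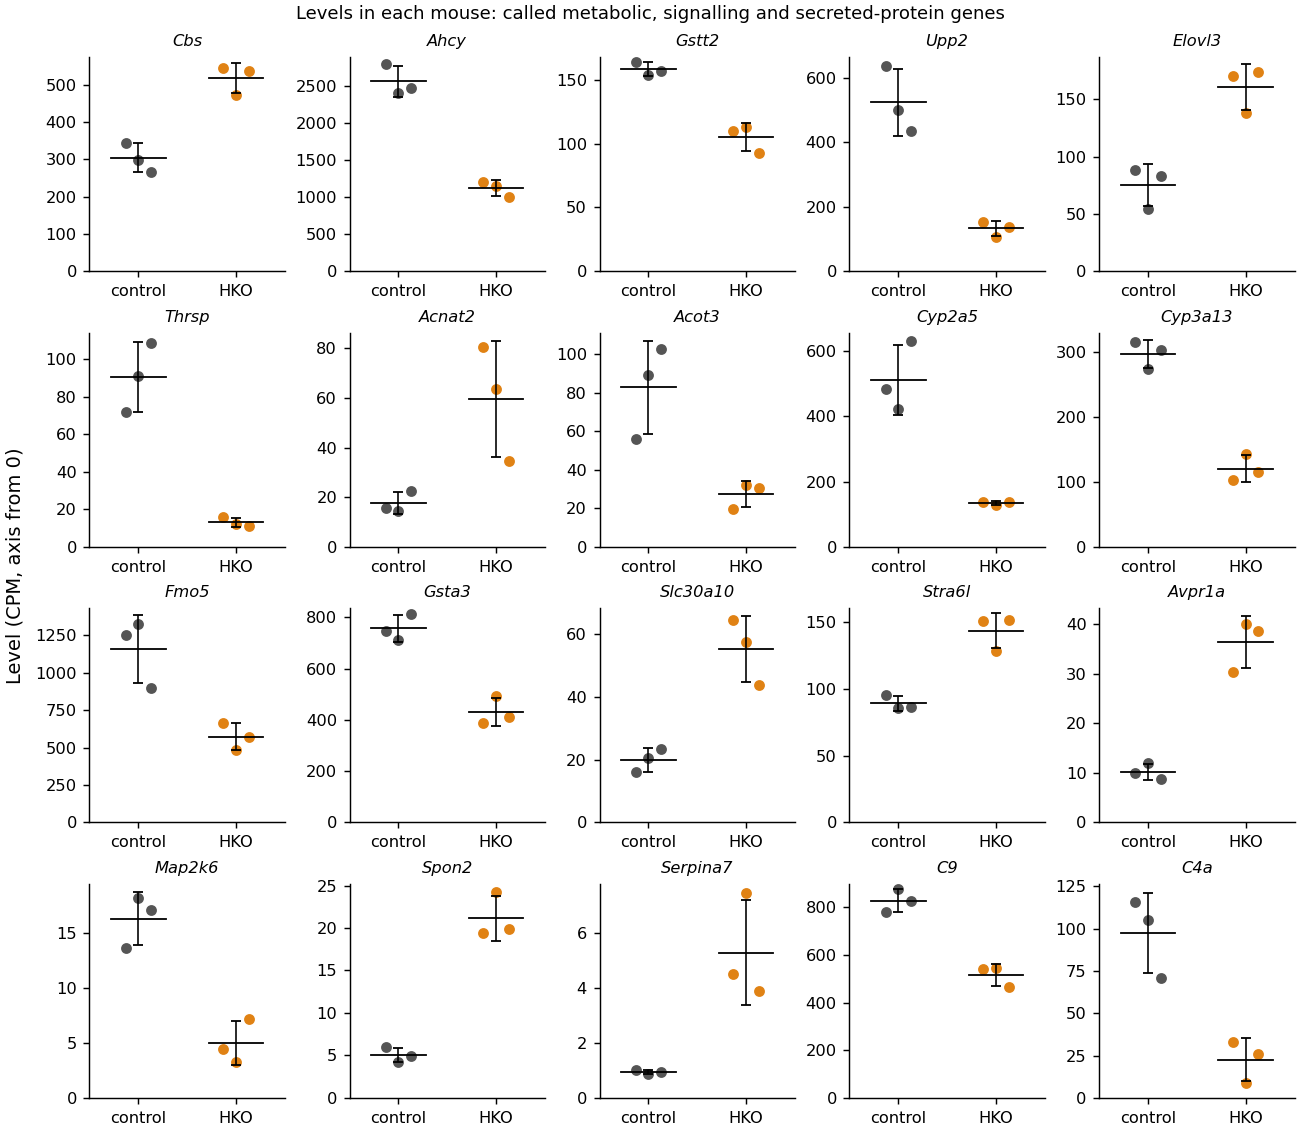
Level of 20 called genes of metabolism, signalling and secretion in each liver (CPM, linear axes from 0, 1 scale per gene), with control livers in grey, HKO livers in orange, and bars for mean and SD (n = 3). In each panel the 3 HKO livers lay on 1 side of the 3 controls, as for all 119 called genes, and Acnat2 and Serpina7 had the widest spread, relative to the mean, among the genes higher in HKO.

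Sex-biased genes set by growth hormone held 8 calls. Among 30 male-biased genes, 4 fell (Mup20, Mup21, Ugt2b38 and C9), 1 rose (Elovl3), 14 were lower without overlap, and the median was -0.38. Of all genes tested, 0.540% fell, 0.419% rose and 9.15% were lower without overlap. HKO mouse 1 was the lowest liver in 13 of them. Hsd3b5, the steroid dehydrogenase often taken as the male marker, had 30.4, 33.4 and 38.6 CPM in controls and 11.8, 32.3 and 80.8 CPM in HKO, and Cyp4a12a 427, 414 and 470 against 430, 464 and 430 CPM. Both overlapped between groups, and so did the male-biased transporter Slco1a1. Among 18 tested female-biased genes, 3 fell and none rose. Cux2, a homeobox repressor that marks the female liver (chromosome 5, 121856366 to 122050102), had 13.6, 17.7 and 40.7 CPM in the male controls and 1.36, 1.56 and 1.23 CPM in HKO. It fell by 4.11 ± 0.44 on the log2 scale (adjusted p = 0.00260) and was called under all 14 other settings. Trim24, a nuclear receptor cofactor, had 46.8, 55.2 and 49.2 CPM in controls and 21.5, 26.7 and 33.1 CPM in HKO (-0.90 ± 0.16, adjusted p = 0.0321). The third was Acot3. Called members of both lists were thus mostly lower, and A1bg and Prlr, other female-biased genes, were not called.

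No gene among 22 of the growth hormone, STAT5 and IGF axis was called. Igf1 had 884, 846 and 851 CPM in controls and 640, 647 and 709 CPM in HKO (log2 fold change -0.37 ± 0.10, adjusted p = 0.122). Socs2, a feedback inhibitor induced by STAT5, spread widely among HKO livers, with 19.0, 22.8 and 32.3 CPM in controls and 24.6, 188 and 69.4 CPM in HKO (adjusted p = 0.186). Cish, of the same family and named after its values were seen, had 16.0, 24.2 and 5.94 CPM in controls and 19.9, 88.6 and 43.4 CPM in HKO, again highest in HKO mouse 2. The receptor Ghr had 413, 441 and 418 CPM in controls and 290, 352 and 465 CPM in HKO.

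Receptor and kinase genes gave single calls. Avpr1a, the vasopressin receptor of hepatocytes, which is enriched around the central vein (chromosome 10, 122448499 to 122453452), had 9.89, 12.0 and 8.73 CPM in controls and 30.3, 40.0 and 38.6 CPM in HKO. Its log2 fold change of 1.83 ± 0.16 (adjusted p = 0.00107) was the only call among 27 Wnt and pericentral genes, beside 0.960% of all genes tested. Axin2, Lgr5 and Glul were not called (adjusted p = 0.920, 0.869 and 0.285). None of 22 periportal genes was called, of which 18 had negative fold changes with a median of -0.27. Lrp5, a Wnt co-receptor chosen after its values were seen, had 81.8, 79.7 and 67.4 CPM in controls and 125, 134 and 149 CPM in HKO (0.83 ± 0.11, adjusted p = 0.00967). Map2k6, a kinase that activates p38, had 13.6, 18.2 and 17.1 CPM in controls and 4.49, 3.32 and 7.20 CPM in HKO (-1.71 ± 0.26, adjusted p = 0.0202). Rgs16, which ends G protein signals, had 230, 259 and 314 CPM in controls and 97.0, 84.3 and 116 CPM in HKO (-1.43 ± 0.15, adjusted p = 0.00252). Map2k6 and Rgs16 were also singled out after their values were seen.

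Interferon-stimulated genes were higher mainly in 1 liver. Of 45 tested genes, 40 had positive fold changes with a median of 0.45, but HKO mouse 3 was the highest liver in 41 of them, or 91.1%, against 19.5% of all genes tested. Ifit1 had 22.7 CPM in HKO mouse 3 and 4.02 to 9.53 CPM in the other 5 livers. Without that mouse the median of the list was 0.06. Irf1 was the single call, beside 0.960% of all genes tested. It did not follow this pattern, with 17.5, 16.5 and 18.8 CPM in controls and 35.7, 26.2 and 29.2 CPM in HKO (log2 fold change 0.79 ± 0.14, adjusted p = 0.0348).

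Insulin, EGF and MAP kinase, TGF-beta, cytokine, unfolded protein, heat shock and p53 lists held no call. Egr1, an immediate-early gene, had 21.3, 22.9 and 15.2 CPM in controls and 34.9, 35.5 and 61.0 CPM in HKO (log2 fold change 1.15 ± 0.24, adjusted p = 0.0613). Cdkn1a, the p53-induced cell cycle inhibitor, spread from 2.04 to 17.7 CPM in controls and from 9.01 to 72.4 CPM in HKO (adjusted p = 0.359). Irs2, the insulin receptor substrate, had 27.3, 25.1 and 23.2 CPM in controls and 28.4, 69.3 and 49.5 CPM in HKO (adjusted p = 0.144). Tsc22d3, a glucocorticoid target, had 220, 243 and 188 CPM in controls and 143, 111 and 145 CPM in HKO (-0.70 ± 0.14, adjusted p = 0.0505). Thrsp was the only call among 21 glucocorticoid and thyroid hormone genes, beside 0.960% of all genes tested. Dio1, the deiodinase, had 105, 109 and 97.8 CPM in controls and 15.8, 51.6 and 55.7 CPM in HKO (adjusted p = 0.136).

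Several called genes belonged to no list. Clpx, the unfoldase of the mitochondrial ClpXP protease (chromosome 9, 65294260 to 65330658), had 145, 128 and 112 CPM in controls and 377, 475 and 372 CPM in HKO (log2 fold change 1.67 ± 0.14, adjusted p = 0.000781). The adaptor gene Asap2 and the ubiquitin ligase gene Rnf144a both had a log2 fold change of 2.03. Rnf144a had 2.23, 2.83 and 2.04 CPM in controls and 8.92, 9.38 and 10.8 CPM in HKO (adjusted p = 0.00222). St5 had a log2 fold change of 1.49 and the tubulin gene Tubb2a of 1.45, with Tubb2a at 15.5, 15.7 and 15.4 CPM in controls and 48.0, 40.2 and 38.6 CPM in HKO (adjusted p = 0.000781). Zbtb7c, Gm15401 and the decreased Snhg11, Kcnk5, Osbpl3 and Ccrn4l complete the largest changes of genes on no list. Ccrn4l encodes nocturnin, which is known for its daily rhythm in liver. Osbpl3, an oxysterol-binding protein, had 25.6, 20.1 and 25.3 CPM in controls and 3.43, 7.70 and 5.70 CPM in HKO (-2.08 ± 0.26, adjusted p = 0.00618).

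A further set off the lists was singled out after its values were seen, because its genes belong to small-molecule metabolism. Coq10b, which binds coenzyme Q in the respiratory chain, had 64.8, 68.1 and 61.0 CPM in controls and 20.7, 23.8 and 19.7 CPM in HKO (log2 fold change -1.59 ± 0.11, adjusted p = 0.000374). Slc16a12, a creatine transporter, had 98.2, 114 and 113 CPM in controls and 54.6, 63.9 and 56.3 CPM in HKO (-0.89 ± 0.11, adjusted p = 0.00521). Its relative Slc16a1, the lactate and ketone transporter MCT1, went the other way, with 48.4, 56.8 and 62.0 CPM in controls and 104, 132 and 92.3 CPM in HKO (0.97 ± 0.15, adjusted p = 0.0182). In phospholipid turnover, the choline kinase Chka rose (1.23 ± 0.11, adjusted p = 0.00107) and the glycerophosphocholine phosphodiesterase Gpcpd1 fell by 1.20 ± 0.16 on the log2 scale (adjusted p = 0.00967). The threonyl-tRNA synthetase Tars had 47.3, 47.3 and 52.6 CPM in controls and 108, 98.6 and 119 CPM in HKO (1.14 ± 0.10, adjusted p = 0.00118).

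Clock genes made up 9 of the calls, Arntl higher and 8 lower, of 22 tested, beside 0.960% of all genes tested that were called. The list summed to 1457 to 1650 CPM in controls and 754 to 1108 CPM in HKO, with no overlap. The sources used here give no time of day at which the livers were taken, so a difference in that time between groups and the deletion cannot be told apart as a source of clock-dependent values, those of metabolic genes with a daily rhythm among them.

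Promoter windows of 250 bases before the start (RefSeq, GRCm38.p6) were on hand for 9495 of the genes tested and 88 of the 119 called, and were searched on both strands. Genes with several start sites have several windows (20.5% of those tested, 12 of 35 called higher and 10 of 53 called lower), and a match in any of them was counted. The E2F letters TTTCCCGC, TTTGGCGC, TTTCGCGC or TTTGCCGC were in a window of 3.80% of these genes tested, in 2 of 35 called higher (Chka and Abtb2) and in 2 of 53 called lower (Stk35 and Upp2). The E-box CACGTG was in 9.96%, in 4 of 35 and in 10 of 53. The D-box, TTATGTAA or TTACATAA, bound by the PAR-bZIP factors that include Dbp and Tef, was in 0.621%, in 0 of 35 and in 4 of 53 (Coq10b, Slc16a12, Map2k6 and Per3). Windows of 4 metabolic and signalling genes with lower levels are shown for these letters, in capitals, 5′ to 3′ on the strand of the gene. They are chr1:55052520-55052769 (plus strand) for Coq10b, chr19:34747329-34747578 (minus) for Slc16a12, chr11:110478265-110478514 (plus) for Map2k6 and chr2:58567084-58567333 (plus) for Upp2. For Coq10b and Upp2 the bases after the start were found in a transcript of the gene. For Slc16a12 and Map2k6 they were not, so the orientation of those windows rests on the source alone. The capitals mark a D-box 162 bases and an E-box 78 bases before the start in Coq10b, an E-box at 240 and a D-box at 76 bases in Slc16a12, a D-box at 231 bases in Map2k6, and E2F letters on the opposite strand at 184 bases in Upp2. The Map2k6 window belongs to an internal start site, 79393 bases downstream of the gene's 5′ end in GENCODE, and is 1 of 3 windows of that gene, while the other 3 windows lie within 39 bases of the 5′ end. Upp2 has a second, downstream window without a match. A match is a description of the letters and not a binding site.
Coq10b: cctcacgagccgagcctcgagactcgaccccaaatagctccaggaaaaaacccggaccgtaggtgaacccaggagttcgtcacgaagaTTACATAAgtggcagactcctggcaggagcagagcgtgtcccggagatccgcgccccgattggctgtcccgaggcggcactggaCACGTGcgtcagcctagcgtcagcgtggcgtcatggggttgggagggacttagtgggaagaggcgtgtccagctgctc
Slc16a12: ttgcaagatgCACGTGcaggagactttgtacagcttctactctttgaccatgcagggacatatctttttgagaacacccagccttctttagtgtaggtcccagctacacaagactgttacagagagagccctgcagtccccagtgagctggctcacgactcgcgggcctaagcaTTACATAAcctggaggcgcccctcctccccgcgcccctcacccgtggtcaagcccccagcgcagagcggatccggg
Map2k6: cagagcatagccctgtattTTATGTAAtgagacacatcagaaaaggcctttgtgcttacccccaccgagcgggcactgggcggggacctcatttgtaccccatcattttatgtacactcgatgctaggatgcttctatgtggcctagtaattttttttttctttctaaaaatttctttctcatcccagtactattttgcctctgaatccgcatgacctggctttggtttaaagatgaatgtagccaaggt
Upp2: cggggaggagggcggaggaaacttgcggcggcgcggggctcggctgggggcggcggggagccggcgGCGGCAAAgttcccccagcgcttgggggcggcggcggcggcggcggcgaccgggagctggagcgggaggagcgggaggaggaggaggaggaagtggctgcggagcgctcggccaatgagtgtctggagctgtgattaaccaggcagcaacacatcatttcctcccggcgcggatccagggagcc

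The other cohort of the series gives the same contrast after a lifelong deletion in liver cells by Alb-Cre (LKO, 4 mice) against its own 4 controls, without virus. No gene was called there among 12426 tested by edgeR (0%), with 352 (2.83%) at an unadjusted p under 0.05 and 3 called by DESeq2. Of the 119 genes called in HKO, 117 had a value in LKO, 93 of them with the same sign. These genes were chosen by their HKO values, and the share of same signs over all genes tested was not computed. The count is therefore no measure of agreement between the cohorts. The 2 effects were then compared in 1 fit of the 14 livers, in which the cohorts also differ in virus, in age at deletion and in ploidy, since LKO hepatocytes are mostly diploid and those of HKO and control mice mostly polyploid by the study's description. No gene passed the threshold for the difference among 12945 tested by edgeR (0%), with 579 at an unadjusted p under 0.05, 70 of them genes called in HKO, and 21 called by DESeq2. The difference contains the HKO values by which those 70 genes were called, so their number follows in part from that choice.

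Side by side, Mup20 had log2 fold changes of -1.33 ± 0.18 in HKO and -1.06 ± 0.68 in LKO. For C9 they were -0.68 ± 0.11 and -0.50 ± 0.42, and for Ahcy -1.19 ± 0.12 and -0.51 ± 0.32. None of these 3 LKO values passed the test by edgeR (adjusted p = 0.999 for each). For Upp2 they were -1.98 and -0.34, a difference of -1.64 ± 0.37 (adjusted p = 0.601 for the difference). For Avpr1a they were 1.83 and 0.02, a difference of 1.82 ± 0.33 (adjusted p = 0.174). Cux2 had the opposite sign, -4.11 in HKO and 0.93 in LKO, with a difference of -5.03 ± 0.83 (adjusted p = 0.100). The Cux2 level of the LKO cohort's controls was 0.715 ± 0.501 CPM (SD, n = 4), against 24.0 ± 14.6 CPM (SD, n = 3) in the controls of the HKO mice, so the 2 sets of controls themselves stood apart. The smallest adjusted p for a difference, 0.0739, was shared by St5 and Egr1.

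**Figure D5:**
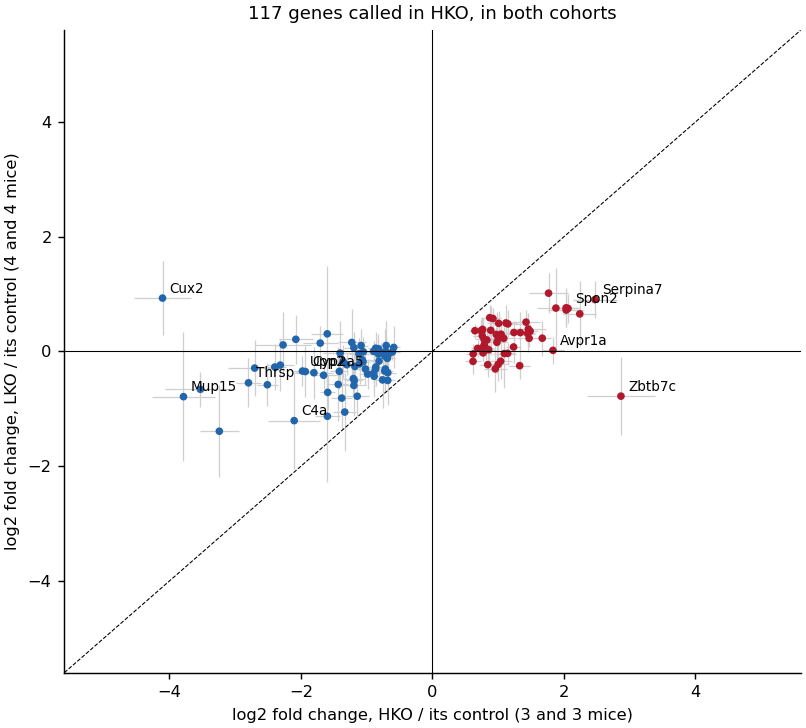
Log2 fold changes of the 117 genes called in HKO and measured in both cohorts, HKO against its control (x axis, 3 and 3 mice) and LKO against its control (y axis, 4 and 4 mice), with SE as grey lines and equality as a dashed line. For 93 genes the LKO value had the same sign and a smaller size, so that the point lies between the dashed line and the horizontal axis, and 24, Cux2 and Zbtb7c among them, had opposite signs. The genes were chosen for large HKO changes, so smaller LKO values follow in part from that choice.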

How the data were processed

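Total RNA from snap-frozen liver was sequenced as polyA RNA, and raw gene counts, not normalized, were deposited by the authors after trimming and alignment with STAR to mm10. The annotation version is not given in the sources used here. The methods state 4 mice per genotype at baseline, while 3 HKO and 3 control libraries of this cohort were analyzed. Counts of both strands together were taken for 24411 genes, after removal of 4 entries that name no gene (no feature, 12.6% to 14.7% of reads per library, among them). With strand disregarded, overlapping and antisense genes cannot be separated.

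In R 4.3.3, low-count genes were removed by filterByExpr, TMM factors were computed, and edgeR 4.0.16 gave the tests (quasi-likelihood F-test, 2-sided, Benjamini-Hochberg adjustment over all genes of the comparison). Errors of log2 fold changes are SE from the fit, and levels are CPM. DESeq2 1.42.0 was used as an alternative. Each mouse is 1 sample, so p-values measure the spread between mice. The genes, lists and comparisons were chosen with earlier results of these data known. Genes named were E2f7 and E2f8, the 15 largest increases and 15 largest decreases among called genes, called list members and up to 4 set genes per list, with most others identified in the text as chosen afterwards. Mat1a, Gnmt, Bhmt, Cth, Mup7, Ass1, Sftpb, Mpo, Ngp, Camp, Stk35 and Abtb2 were named outside this rule as well. Some genes that this rule names are not reported here. Lists are described by counts and medians without a test. Coordinates come from GENCODE vM21 (GRCm38), to which 95.8% of symbols were matched, and promoter sequences from RefSeq.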

Additional observations from a re-analysis of the deposited data

How the results depend on the processing

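The 119 calls (52 higher, 67 lower) became 331 (150 and 181, with 117 of the 119 among them) under DESeq2, 255 with no filter beyond 1 count, 134 with library size alone (56.7% higher against 43.7%), 118 to 125 with RLE factors, a minimum of 10 counts, a stranded column or no fold limit, and 31 in a joint fit with the LKO cohort. Leaving out 1 mouse gave 54 to 297 calls, 54 without control mouse 1, 56 without control mouse 2 and 297 without HKO mouse 1, the liver farthest from its group. The cause was not tested. Of the 119, 17 were called under every one of these settings, among them Slc30a10, Avpr1a, Spon2, Clpx, Tars, Upp2, Cux2, Cyp3a13, Osbpl3 and Thrsp, 43 whichever mouse was left out, and none changed sign. Sign changes without a call made up 114 of 1890 values of uncalled named genes, and 48 of 405 list medians moved by more than the spread between mice.

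The replicate block, by the numbers in the titles, gave 263 calls (111 higher, 152 lower). Deviations of same-numbered mice correlated at 0.23, -0.04 and 0.12, and not every mouse correlated best with its own number, so the numbers were not taken to pair the mice. For the difference of the HKO and LKO effects, 0 calls became 21 with DESeq2, 2 with no filter and 0 to 1 with 1 mouse left out (1 without HKO mouse 1), and 0 with the replicate block. For LKO alone, 0 became 3 with DESeq2 and 0 to 1 without 1 mouse, in settings added after the data were seen. With 3 mice per group, genes that missed the threshold are not shown to be equal, and for genes under about 1 CPM few reads limit what could be called.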
